A study of Caenorhabditis elegans with 2 samples.

Results

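Chromosome V carried 320 of the 2568 peaks kept by the authors' filter on the irreproducible discovery rate, or IDR, in a ChIP-seq experiment for the zinc finger protein LSY-2 of the nematode *Caenorhabditis elegans*. These 320 peaks were taken as every entry of the deposited IDR list on genome build ce11 whose chromosome was V. No measured value entered that choice. Of the other entries, 2230 lay on the other nuclear chromosomes and 18 on the mitochondrial genome.

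The samples formed 1 group of 2 biological replicates, each made from whole animals of both sexes collected as mixed-stage embryos. The strain was OP367, which carries the allele unc-119(tm4063) on chromosome III and wgIs367, an insertion that supplies LSY-2 fused to eGFP, so every animal in both replicates carried both. The promoter that drives the fusion is not given in the sources used here. There was no untreated, untagged or mutant group. Read depth is unknown from these lists, so the 95% Wilson intervals printed with shares reflect counting of peaks or genes alone. The peaks came from whole embryos, so strong binding in few cells and weak binding in many cannot be told apart.

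LSY-2 belongs to the C2H2 zinc finger proteins, whose fingers contact DNA bases directly, and was named for a lost left/right difference between the ASE taste neurons of mutants. ChIP-seq enriches the DNA fragments that lie under a tagged protein, and the summit of a peak is the base where the fragments pile up most. Autosomes of this nematode have a centre rich in conserved, widely expressed genes, and arms rich in duplicated gene families such as chemoreceptors, which are G protein-coupled receptors used to sense odours and tastes.

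The highest peaks of chromosome V shared a short sequence at their summits. The hexamer TACGGT, or its reverse complement ACCGTA, was present within 50 bp of the summit in 12 of the 12 highest-signal peaks of the chromosome, and the next most frequent hexamer was present in 7 of the 12. The signal is the authors' own value for each peak, and it was used only to rank and describe peaks within 1 list. The windows of 8 of these 12 peaks are shown to let the hexamer and its surroundings be compared. Each reads 5′ to 3′ on the plus strand of ce11, spans 101 bases centred on the summit and has the hexamer in capitals on whichever strand it lies. The window named F55A11.1 lies at chrV:11764519-11764619, between the divergent genes F55A11.1 and *syx-5*. The window named rpl-38 lies at chrV:15511766-15511866, upstream of that gene. The Y45G12B.2 window lies at chrV:2694549-2694649, and the R11H6.5 window at chrV:14612318-14612418, between R11H6.5 and *ccnk-1*. The F31D4.2 window lies at chrV:20845625-20845725, between F31D4.2 and *fkb-6*, and the pas-6 window at chrV:5584535-5584635. The F57A8.1 window, at chrV:10042458-10042558, is intronic, and the dpy-30 window lies at chrV:12191062-12191162, upstream of that gene. None of these windows touches an annotated exon.
F55A11.1: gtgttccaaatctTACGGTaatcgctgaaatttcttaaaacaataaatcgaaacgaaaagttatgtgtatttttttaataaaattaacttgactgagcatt
rpl-38: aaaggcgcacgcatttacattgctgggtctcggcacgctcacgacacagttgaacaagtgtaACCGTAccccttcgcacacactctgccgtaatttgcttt
Y45G12B.2: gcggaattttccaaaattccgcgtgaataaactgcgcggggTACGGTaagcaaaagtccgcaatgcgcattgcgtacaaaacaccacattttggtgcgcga
R11H6.5: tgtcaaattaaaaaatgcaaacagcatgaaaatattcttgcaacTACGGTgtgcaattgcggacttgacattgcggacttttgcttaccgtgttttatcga
F31D4.2: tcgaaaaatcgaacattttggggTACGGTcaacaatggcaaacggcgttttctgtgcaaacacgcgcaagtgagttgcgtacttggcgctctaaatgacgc
pas-6: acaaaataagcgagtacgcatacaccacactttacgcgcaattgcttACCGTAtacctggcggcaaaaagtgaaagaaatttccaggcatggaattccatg
F57A8.1: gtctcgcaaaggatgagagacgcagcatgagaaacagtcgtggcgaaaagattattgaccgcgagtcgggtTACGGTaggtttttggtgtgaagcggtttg
dpy-30: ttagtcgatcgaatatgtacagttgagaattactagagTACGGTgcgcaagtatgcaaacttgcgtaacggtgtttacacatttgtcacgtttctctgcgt

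In these windows the hexamer faced either direction along the plus strand, and the bases around it differed in part. Read on the strand of TACGGT, the bases GGGG lay directly before it in the rpl-38, Y45G12B.2 and F31D4.2 windows. Among the 12 highest peaks, CCGTAC or its reverse complement GTACGG, which can overlap the hexamer, was in 7 windows. The F55A11.1 window, under the highest peak, had a GC content of 26.7%, against 51.5% in the rpl-38 window. For contrast, 2 windows of strong peaks without the hexamer are shown, from the promoter of *sec-61.G* at chrV:10897323-10897423 and the promoter of *unc-62* at chrV:4499172-4499272, so neither has capitals.
sec-61.G: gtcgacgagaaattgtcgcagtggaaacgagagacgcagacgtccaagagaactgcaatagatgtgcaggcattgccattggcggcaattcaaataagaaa
unc-62: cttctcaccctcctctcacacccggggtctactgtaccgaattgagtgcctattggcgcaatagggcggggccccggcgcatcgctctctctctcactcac

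The hexamer was chosen after the values were seen, on these 12 peaks, so its presence there is a description. Below those 12, it was present in 42 of the other 308 chromosome V windows, or 13.6% (10.2 to 17.9). The peaks were then divided by signal at values that were also chosen after the values were seen. All 15 chromosome V peaks with a signal of 500 or more had the hexamer, including the 3 that were not used to choose it, those at *fib-1*, *drap-1* and Y32B12B.2. The share was 36.4% (15.2 to 64.6) of 11 peaks from 200 to 500 and 31.6% (19.1 to 47.5) of 38 peaks from 100 to 200. It was 10.1% (5.22 to 18.7) of 79 peaks from 60 to 100, 6.96% (3.57 to 13.1) of 115 peaks from 40 to 60, and 11.3% (5.58 to 21.5) of the 62 peaks under 40.

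Peaks of the other nuclear chromosomes had no part in choosing the hexamer. There it was present in 130 of 145 windows with a signal of 500 or more, or 89.7% (83.6 to 93.6), and in 33 of 434 with a signal under 40, or 7.60% (5.47 to 10.5). Over all signals the shares were 16.9% (13.2 to 21.4) on chromosome V and 16.3% (14.8 to 17.9) on the others. In windows of the same length placed 181 bp upstream of every protein-coding gene of chromosome V, the share was 2.84% (2.42 to 3.34) of 4994. The median GC content of the chromosome V windows was lower in the weaker signal classes, with 48.5% at a signal of 500 or more, 47.5% in each class from 60 to 500, 45.5% from 40 to 60 and 43.6% under 40. Its part in the shares of the hexamer was not tested.

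**Figure D1:**
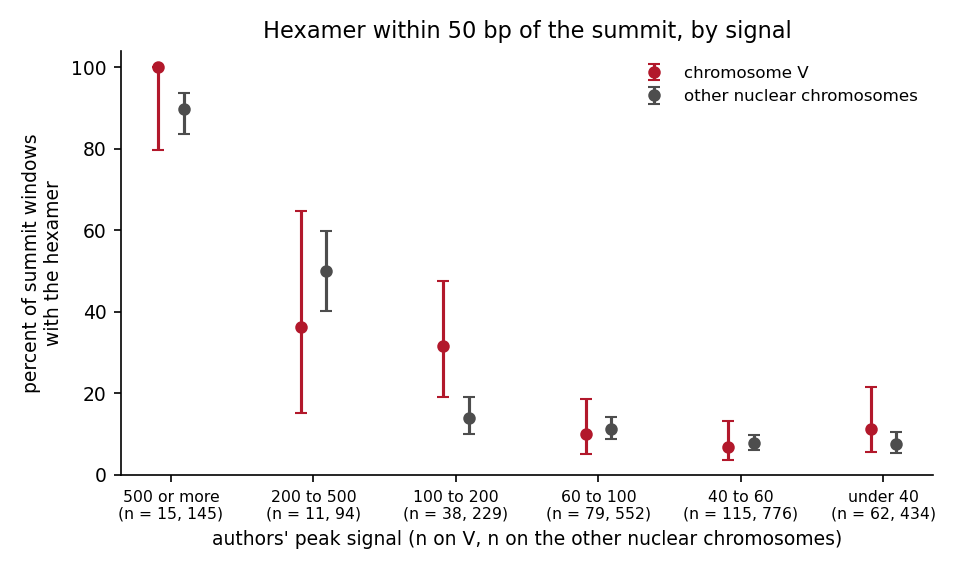
Percent of summit windows (50 bp to each side) that hold TACGGT on either strand, by the authors' peak signal, for chromosome V (red) and the other nuclear chromosomes (grey), with 95% Wilson intervals. On both, the share is 89.7% or more in the class of 500 or more and between 6.96% and 11.3% below a signal of 100.

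The position of the hexamer was measured in windows that held it, so it could lie at most 50 bp from the summit. Among the 19 chromosome V peaks with a signal of 200 or more that held it, its middle was at a median of 10.5 bp from the summit, from 0.5 to 40.5 bp, and in 15 of the 19 within 25 bp. Of the 19, 12 are the peaks on which the hexamer was chosen, and the other 7 had a median of 15.5 bp. The 35 weaker peaks of the chromosome with the hexamer had a median of 17.5 bp, with 22 within 25 bp. On the other nuclear chromosomes the medians were 14.5 bp over 177 peaks of 200 or more and 16.5 bp over 187 weaker ones. The 54 chromosome V peaks with the hexamer had a median signal of 134.8, from 33.5 to 1996, and the 266 without it had a median of 52.9, from 33.4 to 314.1. The choice on the 12 highest peaks fixes part of that difference, and without those 12 the median of the remaining 42 was 75.6. Both kinds of peak were mostly in promoters, 81.5% of those with the hexamer and 73.7% of those without. Most copies of the hexamer on chromosome V had no peak: of 5966 occurrences, 59 lay within 50 bp of an IDR summit, or 0.989%. Occurrences per Mb were 312.3 in the left, 280.6 in the centre and 262.5 in the right part of the chromosome, each part being 1 of 3 equal lengths. The share of peak windows with the hexamer was 16.5% on the left, 15.6% in the centre and 19.1% on the right.

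The strong peaks without the hexamer were named after their values were seen. With a signal of 200 or more they numbered 7 of 26. They lay at *sec-61.G*, which encodes the gamma subunit of the protein translocation channel, and at C47E8.4 beside the chaperone gene *hsp-90*. Others lay 3485 bp upstream of F59A7.7, in the promoter of *unc-62* and at Y39B6A.43. The rest lay at *crt-1*, which encodes calreticulin, and at R186.8. The signals of these 7 peaks ran from 200.9 to 314.1. At the other end, 7 of the 62 peaks with a signal under 40 held it, with nearest 5′ ends at *set-5*, Y39B6A.13, *rgef-1*, *ptr-22*, *egl-46*, *him-17* and *ceh-32*.

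The 10 listed motifs were chosen with earlier results of these data known, so their shares are a description. Searched on both strands, 4 of them were more frequent at chromosome V summits than in all its promoter windows, by more than their intervals. CTGCG was in 31.2% (26.4 to 36.5) of summit windows against 6.89% (6.22 to 7.62) of promoter windows, GAGAG in 35.0% (29.98 to 40.4) against 13.3% (12.4 to 14.2), and GCGCGC in 13.1% (9.86 to 17.3) against 1.40% (1.11 to 1.77). CTGCG and GCGCGC can overlap by the letters GCG. TGACG was in 21.6% (17.4 to 26.4) against 10.3% (9.52 to 11.2). At summits of the other nuclear chromosomes CTGCG was in 27.4% (25.6 to 29.3), GAGAG in 35.9% (33.9 to 37.9) and TGACG in 19.5% (17.9 to 21.2). Each of these intervals overlapped that of the chromosome V summits. GCGCGC was in 8.57% (7.47 to 9.80) of the summits of the other chromosomes, below the chromosome V interval. The T-rich hexamer TTTTTT was in 25.3% of summit windows against 44.5% of promoter windows, TTTCAG in 6.25% against 16.9%, TGATAA in 3.75% against 11.97% and TATAAA in 6.88% against 12.9%. The shares for CACGTG, 2.19% and 1.56%, and for ATTGGT, 4.69% and 5.51%, had overlapping intervals. Summit windows had a median GC content of 46.5% and promoter windows one of 32.7%, so motifs of different base composition start from different shares. The part of GC content in these motif shares was not tested.

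Among chromosome V summits, GAGAG differed with location. It was in 57.8% (43.3 to 71.0) of the 45 windows whose summit lay neither in a promoter window nor inside a protein-coding gene. The share was 30.8% (25.3 to 36.9) of the 240 windows with a promoter summit. It was in 26.2% (17.9 to 36.8) of the 80 highest-signal peaks and 35.0% (25.5 to 45.9) of the 80 lowest. CTGCG was in 38.8% and 35.0% of the same peaks. TACGGT was in 11.2% (6.03 to 20.02) of the 80 lowest and, with the 12 peaks it was chosen on left out, in 20 of the other 68 of the 80 highest, or 29.4% (19.9 to 41.1).

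The highest peak of chromosome V had a signal of 1996 and rank 16 among all IDR peaks. It ranked 14 in replicate 1 and 21 in replicate 2, with signals of 1074 and 909.1 in those lists. Its summit lay 184 bp upstream of F55A11.1 and 335 bp upstream of *syx-5*, which encodes a syntaxin of the early secretory pathway. The next peak, with a signal of 1402 and rank 43 in both replicates, lay between R04F11.2, 41 bp away, and R04F11.5, 321 bp away. The peak 350 bp upstream of *rpl-38*, a large ribosomal subunit protein gene, had a signal of 1397 and ranked 57 and 39. The peak in the promoter windows of both Y45G12B.2 and Y45G12B.3 had a signal of 1361 and ranked 52 and 46. The 12 highest peaks were found at similar ranks by both replicates, and none ranked below 140 in either.

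Several further strong peaks lay between divergent genes. The peak between R11H6.5 and *ccnk-1*, a cyclin K gene, had a signal of 1236 and ranked 63 and 60. The peak between F31D4.2 and *fkb-6*, which encodes an FK506-binding protein, had a signal of 873.5 and ranked 114 and 96. The peak between *pas-6*, a gene for an alpha subunit of the 20S proteasome, and CD4.11 had a signal of 818.1 and ranked 105 and 121. The peak between Y43F8C.7 and the mitochondrial ribosomal protein gene *mrps-28* had a signal of 769.0, ranked 116 and 122, and was the only one of the 15 peaks of 500 or more whose summit is in soft-masked sequence.

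Other strong peaks lay in the promoter window of 1 gene or of none. The peak 425 bp upstream of *ife-3*, which encodes a cap-binding protein of the eIF4E family, had a signal of 695.8 and lay at the left end of the chromosome, from 8082 to 8460. The peak 407 bp upstream of *dpy-30*, a subunit of complexes that methylate histone H3, had a signal of 683.3 and ranked 133 and 123. An intron of F57A8.1 held a peak of 714.2, ranked 140 and 114, whose summit lay 1169 bp upstream of the nearest 5′ end of that gene. The highest peak outside promoter windows and protein-coding genes had a signal of 827.7 and lay 1842 bp upstream of *snx-6*, a sorting nexin gene. The next, with 225.7, lay 3485 bp upstream of F59A7.7 and within 250 bp of a pseudogene.

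The homeobox gene *unc-62*, of the Meis family, had separate peaks in its promoter window, with a signal of 220.2 and ranks of 240 and 246, and in an exon 696 bp downstream of a 5′ end, with 227.7 and rank 251 in both replicates. The other exon peaks were weak, with 50.3 in *ccep-97*, nearest to the 5′ end of R02F11.3, and 36.9 in *rgef-1*. After F57A8.1, the highest intron peak had a signal of 163.8, ranked 275 and 444, and lay in F28F8.7, nearest to *fbxa-139*. The lowest IDR peak of the chromosome, 369 bp upstream of *ldp-1*, had a signal of 33.4 and ranked 2041 in replicate 1 and 3699 in replicate 2. Just outside the list lay peaks of the pooled replicates near *ets-6*, *nova-1* and *ret-1*, with signals of 33.3.

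Over the 320 peaks the signal ran from 33.4 to 1996 with a median of 56.6, and over the 2230 other nuclear peaks the median was also 56.6, with a maximum of 5501. On chromosome V 256 peaks, or 80%, had a signal under 100 and 26 had 200 or more. The chromosome held 22 of the 250 highest peaks, or 8.8%. The deposited peaks of the chromosome were from 95 to 600 bp long, and 225 of the 320 had the commonest length, 380 bp. The highest signal among the peaks of 380 bp was 91.9, so the stronger peaks all had other lengths.

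Both replicates supported most peaks of the chromosome. By an overlap of at least 1 bp, 233 of the 320 peaks, or 72.8% (67.7 to 77.4), were among the 2568 of highest signal in each replicate, against 72.4% (70.5 to 74.2) on the other nuclear chromosomes. A further 45 did so in replicate 1 alone, 36 in replicate 2 alone and 6 in neither. Of the 160 highest-signal peaks 159 were in both, and of the 160 lowest 74. Since the IDR list holds the top of the pooled replicates, this contrast follows in part from how its peaks were chosen. The highest-signal lists of the replicates placed 329 and 322 peaks on the chromosome.

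**Figure D2:**
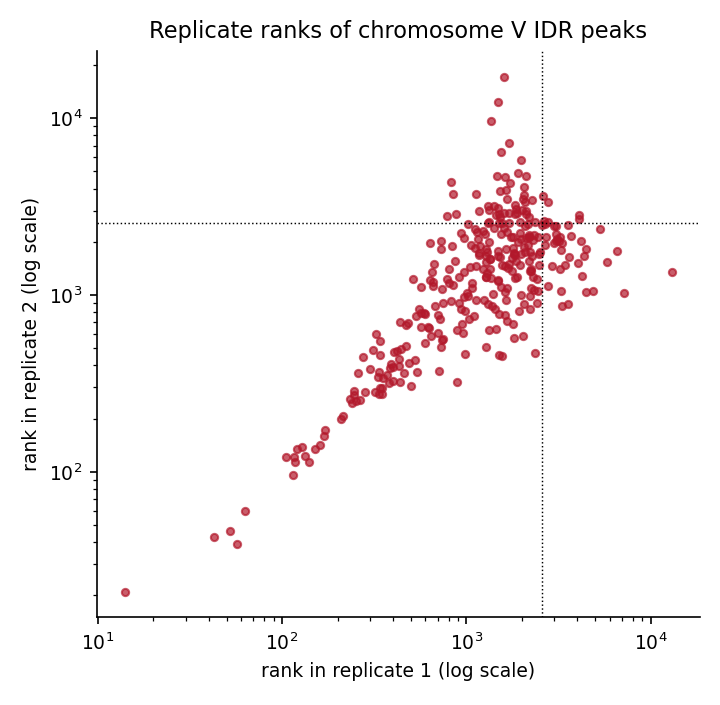
Rank of the overlapping peak in replicate 1 (x axis) and in replicate 2 (y axis), both on log scales, for 319 chromosome V IDR peaks that overlap a peak in each replicate, with dotted lines at rank 2568. Ranks lie close to each other among the strongest peaks and spread widely near the dotted lines.

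Chromosome V was sparse in peaks for its size. It held 12.5% (11.3 to 13.9) of the nuclear peaks, against 20.9% of the nuclear sequence and 25% of the protein-coding genes. This came to 15.3 peaks per Mb, against 28.1 on the other nuclear chromosomes together and 15.1 on X. A gene was counted as having a summit when one lay in its promoter window, which runs from 1000 bp before to 300 bp after any annotated 5′ end of its coding transcripts, and 1 summit could count for several genes. On chromosome V 350 of 4994 genes had one, or 7.01% (6.33 to 7.75). The background was 12.6% over the whole genome and 14.4% over the other nuclear chromosomes together. On X alone the share was 6.55% (5.69 to 7.54), and the intervals of V and X overlapped.

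Peaks were densest in the centre of the chromosome. Of 3 equal lengths, the left held 79 peaks, the centre 147 and the right 94, while their protein-coding genes numbered 1554, 1798 and 1642. Genes with a summit were 5.28% (4.27 to 6.50) on the left, 9.96% (8.66 to 11.4) in the centre and 5.42% (4.43 to 6.62) on the right. The interval of the centre did not overlap those of the arms, and the intervals of the left and right arms overlapped. Median signals were 56.7, 54.6 and 57.8, and peaks found in the highest lists of both replicates were 72.2%, 72.1% and 74.5%.

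**Figure D3:**
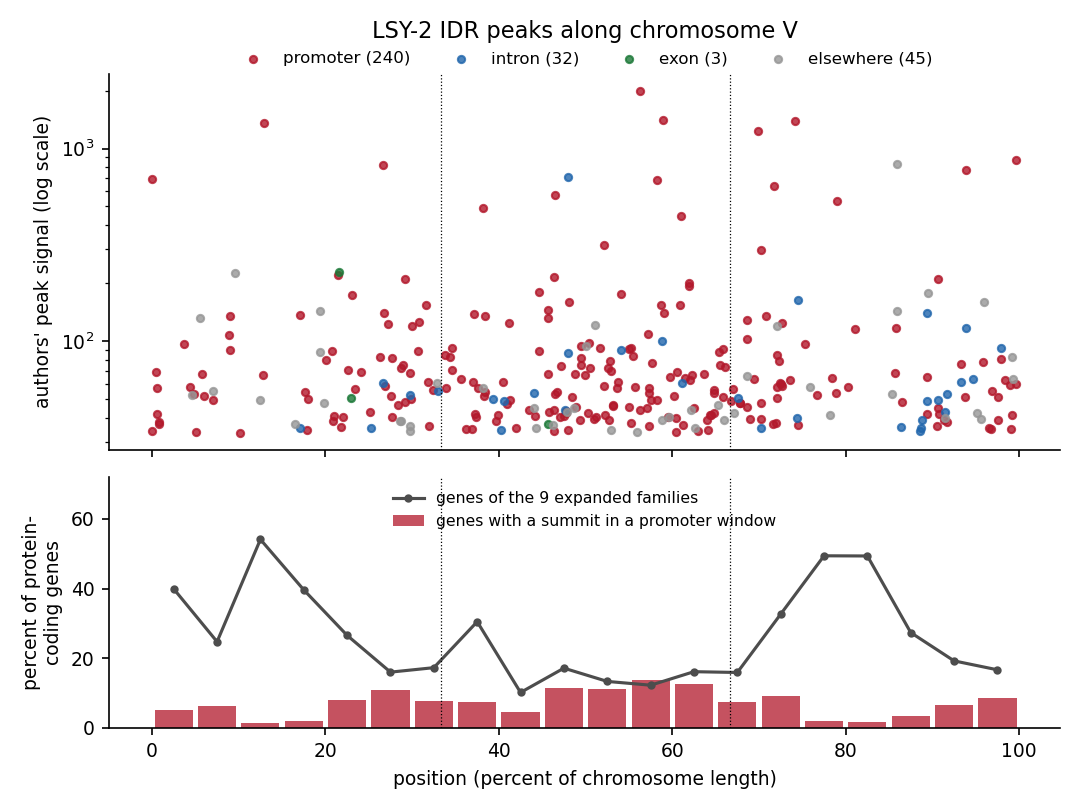
Top, the authors' signal (log scale) of the 320 peaks against position in percent of chromosome length, coloured by location, with dotted lines between the 3 equal lengths. Bottom, the percent of protein-coding genes with a summit (bars) and in the 9 expanded families (line) for each of 20 bins. The family share is highest from 10 to 15% and from 75 to 85% of the length, where the bars are low. From 40 to 45% both are low, with 26 family genes and 12 genes with a summit among 256.

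The gene content of the arms went with this pattern. Genes of 9 expanded families, recognised by their symbols, made up 32.5% of genes on the left, 18.2% in the centre and 32.0% on the right, and 27.2% of the chromosome's genes against 8.18% of those on the other nuclear chromosomes. Among them 12 of 1358 had a summit on chromosome V, or 0.884% (0.506 to 1.54), against 42 of 1225, or 3.43% (2.55 to 4.60), elsewhere in the nuclear genome. With these families left out, 9.30% (8.39 to 10.3) of the remaining 3636 genes of chromosome V had a summit, against 15.4% (14.8 to 16.0) on the other nuclear chromosomes. Within chromosome V the shares without the families were 7.53% (6.08 to 9.29), 11.8% (10.2 to 13.5) and 7.70% (6.28 to 9.41) from left to right. The centre stayed above both arms, and chromosome V below the other chromosomes, with the families removed. Family members that have only a sequence name were not recognised and remained among the other genes.

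**Figure D4:**
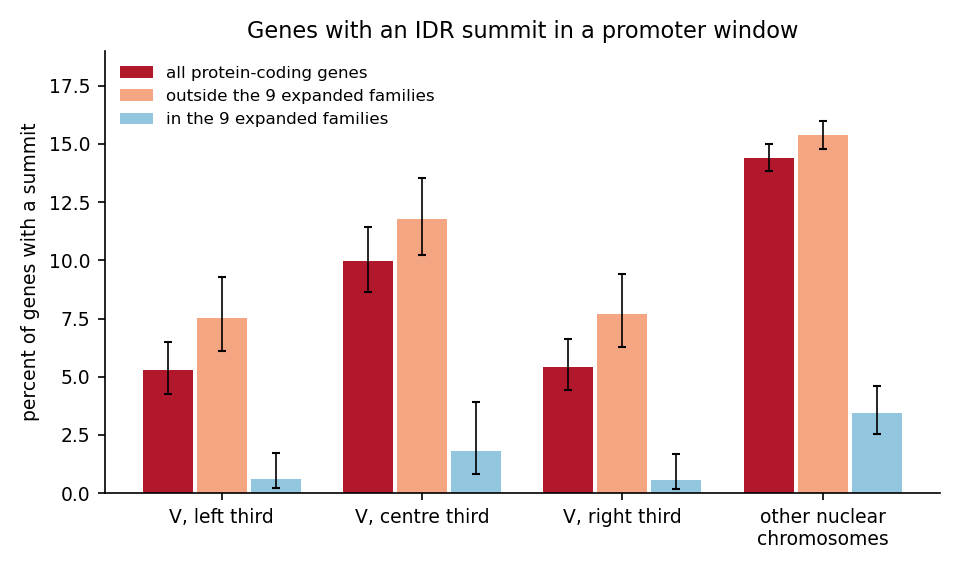
Percent of protein-coding genes with an IDR summit in a promoter window, for all genes, for genes outside and for genes in the 9 expanded families, in the 3 equal lengths of chromosome V and on the other nuclear chromosomes; error bars are 95% Wilson intervals. The centre of V has the highest bars of the chromosome, with 11.8% outside the families, and lies below the 15.4% of the other chromosomes.

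The longest run without a summit was 892188 bp, from 16965864 to 17858052 in the right arm. It held the starts of 198 protein-coding genes, of which 102 belonged to the expanded families and 81 were chemoreceptor genes. The summit at its left edge had a signal of 115.6 and lay nearest to *efl-1*, an E2F family gene, at -189 bp, and also at -950 bp relative to the F-box gene *fbxa-90*. The median distance between neighbouring summits was 34295 bp. At most 4 summits lay within 20 kb, in 6 such stretches, of which 2 overlap at W06H8.6. One of them, from 9544410 to 9564409, held summits at *mdf-1*, a spindle checkpoint gene, at the histone gene *his-37*, at *nstp-10* and in *rgef-1*, with signals of 67.1, 144.4, 131.6 and 36.9.

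The chemoreceptor genes, the most numerous list on the chromosome, were almost without summits. Of 890, 4 had one, or 0.449% (0.175 to 1.15), all in the centre, where 208 of the 890 lie. They were *srh-16*, with a signal of 153.6 and ranks of 331 and 344, *srh-89* with 63.3, *srr-10* with 61.2 and *srd-4* with 49.4. All 4 summits fell in windows of a neighbouring gene too, and the lists do not say which of the genes is served. Elsewhere in the nuclear genome 3 of 421 chemoreceptor genes had a summit, or 0.713% (0.243 to 2.07), and the intervals overlapped.

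The gene lists were chosen with earlier results of these data known, so the comparisons with all genes are a description. The other expanded families are set beside the 7.01% of all chromosome V genes. The interval lay below that share for nuclear hormone receptor and C-type lectin genes, as for chemoreceptors, and included it for F-box, UDP-glucuronosyltransferase, collagen, cytochrome P450 and glutathione S-transferase genes. Among nuclear hormone receptor genes, which encode ligand-regulated transcription factors, 2 of 167 had one, *nhr-47* with 82.1 and *nhr-142* with 81.9, both on the left and both in summits shared with another gene, *dnj-19* and F44E7.9. That was 1.20% (0.329 to 4.26), against 9.80% (5.41 to 17.1) of 102 on the other nuclear chromosomes. Of 88 F-box genes, whose products bring substrates to ubiquitin ligases, 2 had one, or 2.27% (0.625 to 7.91), *fbxa-90*, whose summit is shared with *efl-1*, and *fbxa-114*, with 35.3. The conjugating enzyme gene *ugt-12*, in a summit of 56.6 that lies nearer to T19H12.2, was the 1 of 42 UDP-glucuronosyltransferase genes with a summit, or 2.38% (0.422 to 12.3). C-type lectin genes, with 0 of 86, collagen genes, with 0 of 32, cytochrome P450 genes, with 0 of 41, and glutathione S-transferase genes, with 0 of 9, had none, and the upper ends of those intervals were 4.28%, 10.7%, 8.57% and 29.9%. The BATH and MATH genes differed: all 3 on chromosome V had one, *bath-36* with 59.7, *math-33* with 46.0 and *bath-39* with 41.1, or 100% (43.9 to 100), against 4 of 70 on the other nuclear chromosomes. The summits of *bath-36* and *math-33* are shared with *cyn-7* and *erfa-3*.

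Among the housekeeping lists, the intervals of the cytosolic ribosomal protein, proteasome and respiratory chain genes lay above the 7.01% of all chromosome V genes. These lists too were chosen with earlier results of these data known, so this is a description and not independent evidence. Of the 8 cytosolic ribosomal protein genes of chromosome V, 6 had a summit, or 75% (40.9 to 92.9), against 68 of 74, or 91.9% (83.4 to 96.2), on the other nuclear chromosomes. After *rpl-38* they were *rpl-28* with a signal of 154.1, *rpl-39* and *rps-30*, which share 1 summit between them with 138.5, *rpl-2* with 80.4 and *rps-27* with 68.6. The *rpl-28* summit ranked 337 and 365, and also lay at -174 bp from *mrpl-49*, a mitochondrial ribosomal protein gene. With *mrps-28* that made 2 of 10 mitochondrial ribosomal protein genes, or 20% (5.67 to 51.0), against 29 of 60, or 48.3% (36.2 to 60.7), and the interval on chromosome V included the 7.01% of all its genes. Proteasome genes had 3 of 5 with a summit, *pas-6* and the ATPase subunit genes *rpt-2*, with 72.7, and *rpt-1*, with 56.8, or 60% (23.1 to 88.2), against 24 of 28, or 85.7% (68.5 to 94.3).

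Respiratory chain genes had 3 of 7 with a summit, or 42.9% (15.8 to 74.95), against 55.6% (43.3 to 67.2) on the other nuclear chromosomes. They were the ATP synthase subunit genes *atp-4*, with 89.0, and *atp-5*, with 46.4, and the complex I subunit gene *ndua-1*, with 59.7. Of 4 aminoacyl-tRNA synthetase genes, *vars-1*, for the valine enzyme, had one, with 54.6, or 25% (4.56 to 69.9), against 48.1% (30.7 to 66.0). Of 30 histone genes, 4 had one, or 13.3% (5.31 to 29.7), against 25.5% (15.5 to 38.9). They were *his-37* with 144.4, *his-74* with 68.8, and *his-3* and *his-4*, which share a summit with 52.3. Homeobox genes, which encode developmental transcription factors, had 3 of 15, or 20% (7.05 to 45.2), against 22.4% (14.8 to 32.3), namely *unc-62* followed by *ttx-1* with 77.4 and *unc-42* with 54.0. For each of these lists the interval overlapped that of the other nuclear chromosomes, and those of the aminoacyl-tRNA synthetase and histone genes also included the 7.01% of all chromosome V genes.

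**Figure D5:**
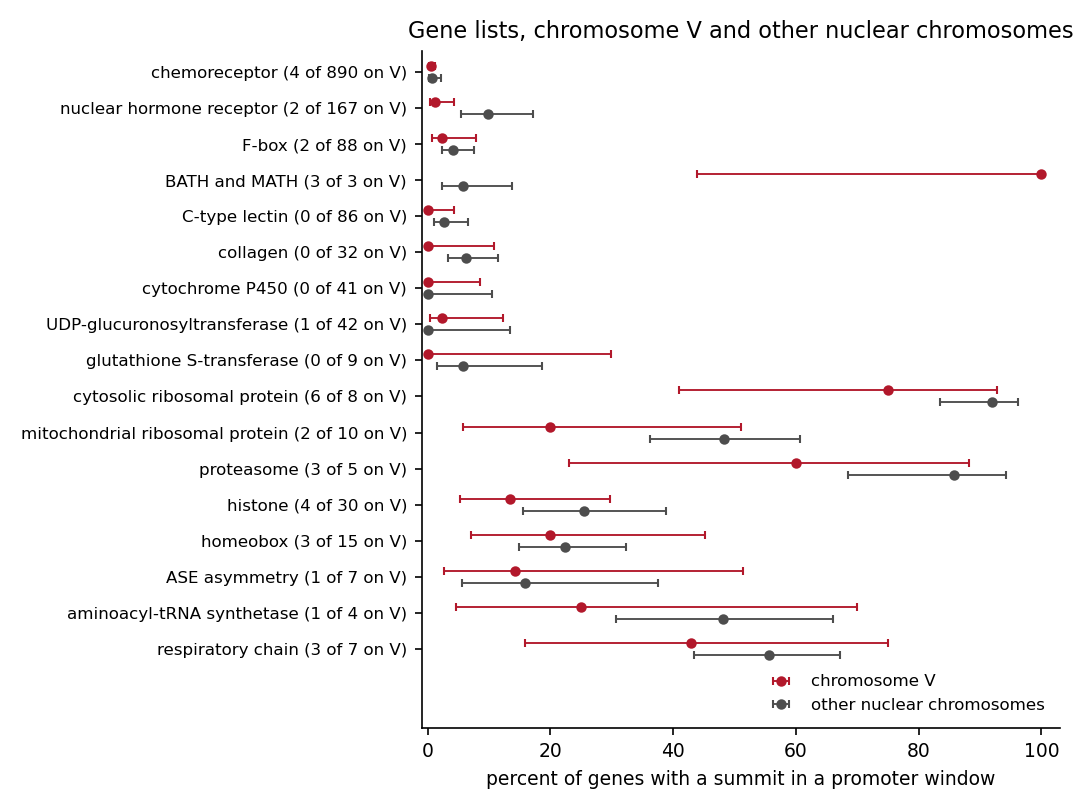
Percent of the genes of each list with an IDR summit in a promoter window, on chromosome V (red) and on the other nuclear chromosomes (grey), with 95% Wilson intervals. On chromosome V the expanded families other than the 3 BATH and MATH genes lie at 2.38% or below, and the cytosolic ribosomal protein genes, at 75% and 91.9%, lie highest among lists of 5 or more genes.

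Of the 7 genes of chromosome V from the list on ASE asymmetry, the pathway LSY-2 is known for, 1 had a summit, *lsy-12*, or 14.3% (2.57 to 51.3), against 3 of 19, or 15.8% (5.52 to 37.6), on the other nuclear chromosomes and 7.01% of all chromosome V genes. Both intervals of the list include that share of all genes. The gene *lsy-12* encodes a histone acetyltransferase of the MYST family. It had 2 summits, with signals of 73.8 and 40.01, which ranked 1102 and 1626 in replicate 1 and 762 and 4677 in replicate 2, so the weaker one was outside the highest 2568 of replicate 2. No summit lay in a promoter window of the others, which are 5 guanylyl cyclase genes that mark the left or right ASE neuron and *lsy-27*. The nearest summit was 20613 bp away for *gcy-22*, 24728 bp for *gcy-6* and 28035 bp for *gcy-7*. It was 54506 bp away for *gcy-14*, 102302 bp for *gcy-20* and 384329 bp for *lsy-27*. The microRNA gene *lsy-6*, which acts in the left ASE neuron, had its nearest summit at 10861 bp, with a signal of 39.2.

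Most chromosome V summits lay in promoters. Promoter windows held 240 of the 320, or 75% (69.98 to 79.4), introns 32, or 10% (7.17 to 13.8), exons 3, and 45, or 14.1% (10.7 to 18.3), lay elsewhere. On the other nuclear chromosomes the promoter share was 70.5% (68.6 to 72.4). Within the promoter windows the median position was -181.5 bp from the 5′ end, against -171 bp on the other chromosomes, and 225 of 240 summits were upstream. Windows of genes on both strands held 105 of the 240, or 43.8% (37.6 to 50.1), against 37.6% (35.2 to 39.99). Summits in windows of genes on both strands had a median signal of 58.8, and those in windows of genes on 1 strand 57.8. Along the chromosome, the intron share was 18.1% (11.6 to 27.1) of the peaks on the right and 6.33% (2.73 to 13.97) and 6.80% (3.74 to 12.1) on the left and in the centre.

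Intronic summits lay beside genes for small noncoding RNAs more often than promoter summits did. Of the 32, 10 were within 250 bp of a tRNA, small nucleolar RNA (snoRNA), snRNA or miRNA gene, or 31.2% (17.95 to 48.6), against 8 of 240 promoter summits, or 3.33% (1.70 to 6.44). Of the 45 summits that lay elsewhere, 3 were, or 6.67% (2.29 to 17.9). snoRNA genes, whose products guide modification of ribosomal RNA, had a summit within 250 bp in 15 of 55 cases on chromosome V, or 27.3% (17.3 to 40.2), against 15.1% (11.5 to 19.7) on the other nuclear chromosomes and a background of 17.1% over the nuclear genome. The intervals of chromosome V and the other chromosomes overlapped. On chromosome V the strongest summits near snoRNA genes were at Y43F8C.22, with a signal of 116.6, and at C51F7.3 and C51F7.4. The latter genes share a summit of 99.6 in an intron of *frm-7*. Next came T03F7.8, with 89.8 in an intron of *cutl-18*. These genes were named after their values were seen.

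The other noncoding classes had lower shares than the snoRNA genes. Of 78 tRNA genes 5 had a summit, or 6.41% (2.77 to 14.1), against a background of 11.9%. Of 40 snRNA genes 1 had one, T11F9.15 with a signal of 108.5, or 2.5% (0.443 to 12.9), against 10.1%. Of 28 miRNA genes 1 had one, *mir-48* of the let-7 family, with 65.6, or 3.57% (0.633 to 17.7), against 3.45%. Of 867 pseudogenes 4 had one, or 0.461% (0.180 to 1.18), against 1.22%. The tRNA, snRNA and miRNA intervals each included their background.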

How the data were processed

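LSY-2 ChIP-seq was analysed in 2 biological replicates of 1 group. The authors deposited a list of 30000 peaks for each replicate, a pooled list of 30000 peaks and an IDR list, with a signal value per peak and the summit's distance in bp from where the peak starts. Per the deposited metadata the IDR list derives from the pooled and replicate lists and the longer lists also hold background. The aligner, the caller, versions and the IDR cutoff are each not given in the sources used here. No control sample was used here. All 320 peaks were among the 2568 highest of the pooled list.

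Coordinates are on ce11, with the RefSeq sequence and Ensembl release 115 annotation of WBcel235. Every peak ended within its chromosome. The gene nearest a summit is the one with the nearest protein-coding 5′ end. Shares were set side by side with 95% Wilson intervals and no test was made, because the design has 1 group. Where replicates were compared, an overlap of at least 1 bp counted, and where several peaks overlapped the highest was taken.

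The rule for the peaks used the chromosome alone and no measured value. That rule, the gene lists, the motifs and the named genes were chosen with earlier results of these data known. Named genes were those at the 12 highest peaks, the 3 highest of each equal length, the 2 highest of each class other than promoter and up to 4 per list by signal, plus the ASE genes, the lowest peak, the longest run without a summit and the densest 20 kb. The chemoreceptor pattern was corrected after the first counts were seen, because it also matched serpin and other genes. The hexamer, its signal classes and the genes named around it were chosen later still. The functions were checked on planted positions, overlaps and motifs. Alternatives were each replicate alone, the 1284 highest IDR peaks, other windows, divisions and overlaps, merged peaks, midpoints and the ce10 list, and, chosen after seeing the data, summits outside soft-masked sequence and wider hexamer windows. The software was scipy 1.17.1, pandas 2.3.3, numpy 2.4.6 and matplotlib 3.10.9 under Python 3.11.15.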

Additional observations from a re-analysis of the deposited data

How the results depend on the processing

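Of 100 values under alternatives, 76 stayed within the interval of the main value and 24 moved. With the 1284 highest IDR peaks, genes with a summit were 3.02% on the left, 5.45% in the centre and 2.92% on the right, 5.12% outside the expanded families, and 81.1% of summits were in promoters, with fewer peaks by construction. With 25% of the length set apart at each end, peaks divided from left to right as 14.7%, 66.9% and 18.4%, and genes with a summit in the right end were 4.04%. A promoter window from 500 bp before to 100 bp after gave 7.95% of genes in the centre, 7.76% outside the families, 66.9% of summits in promoters and 19.1% elsewhere. One from 2000 bp before to 500 bp after gave 12.6% in the centre, 7.13% on the right, 11.7% outside the families, and 85.3% of summits in promoters, 6.88% in introns and 6.88% elsewhere. In each of these the centre kept the highest share of genes. Presence in both replicates was 59.7% with a reciprocal overlap of 50% and 99.7% with all peaks of each list. In windows of 100 bp to each side, median GC content was 41.3%, CTGCG was in 40% and GAGAG in 47.5%. The hexamer, in 73.1% of peaks with a signal of 200 or more, was in 69.2% and 80.8% of as many peaks of replicate 1 and replicate 2 alone. These shares include the 12 peaks on which the hexamer was chosen, which rank high in both replicates. Their closeness was therefore partly fixed by that choice. No paired analysis was possible because the samples form 1 group. Limits are the unknown read depth, the absence of a control sample here, and gene families recognised by symbol alone.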
